A study of Mus musculus with 16 samples.

Results

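The clustered replication-dependent histone genes supply the histone proteins that package newly copied DNA, and most of them lie in tight clusters of short genes without introns. Their promoters are read mainly in S phase, under the histone locus factor NPAT, and their transcripts end in a conserved stem-loop that is bound by SLBP in place of a poly(A) tail. Genes for replication-independent histones, such as H3f3b and H2afz, lie elsewhere, are expressed through the cell cycle and make polyadenylated transcripts. In a proliferating pre-osteoblast the clustered genes are part of the cell division programme, which slows as the cell begins to deposit bone matrix.

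The group was made of every protein-coding gene of the GENCODE vM1 annotation of the mouse genome mm9 whose symbol starts with Hist1h, Hist2h, Hist3h or Hist4h. These were 67 of 22238 protein-coding genes. They were 6 genes of the linker histone H1 and, of the core histones, 19 genes of H2A, 18 of H2B, 11 of H3 and 13 of H4. Of the 67, 55 lay on chromosome 13 (the Hist1 genes), 9 on chromosome 3 (Hist2), 2 on chromosome 11 (Hist3) and 1 on chromosome 6 (Hist4). The annotated genes were small, with a median length of 530 bp against 15535 bp for all genes, 51 were shorter than 1000 bp, and 61 had a single exon.

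Chromatin immunoprecipitation with sequencing had been done in MC3T3-E1, a mouse cell line of osteoblast precursors. Undifferentiated cells in growth medium were set against cells differentiated for 15 days in medium with 50 µg/mL ascorbic acid, which supports collagen synthesis, and 10 mM glycerol-2-phosphate, a source of phosphate for mineral. Cells of passages 5 to 12 were used, and both states had received ethanol, the vehicle of a hormone treatment, for 3 h. For each state 1 list of peaks was given for RUNX2, the runt-domain factor needed for osteoblast formation, for the leucine zipper factor C/EBPβ, and for the histone marks H3K4me3, H3K9Ac, H4K5Ac, H3K4me1 and H3K36me3. The series has 16 samples, and the 2 input DNA samples, the differentiated one labelled as hormone-treated, were not analysed here.

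Each of the 14 lists holds peaks merged over biological replicates of a single cell line, so the spread between replicates cannot be seen, the read depth is unknown, and no difference between states had a test. List lengths differed between states, and they went from 6920 to 8196 regions for H3K4me3, from 12674 to 6272 peaks for RUNX2 and from 15622 to 10847 for C/EBPβ. The lowest deposited score in the H3K4me3 list was 55.2 in undifferentiated and 35.8 in differentiated cells, and the part of these differences between lists in the counts below was not tested. As a check of the cell label, 6 of 10 osteoblast lineage markers had promoter H3K4me3 in each state, against 34.9% and 40.1% of all genes. Runx2, Col1a1, Col1a2, Sparc and Dlx5 had it in both states, Sp7 in undifferentiated cells alone and Spp1 in differentiated cells alone. Alpl, Ibsp and Bglap had none in either state. None of 4 adipocyte, 3 muscle, 3 neural, 3 blood, 3 endothelial and 3 chondrocyte markers had promoter H3K4me3 in either list. Of these, the chondrocyte gene Col2a1 had promoter H3K9Ac in both states and RUNX2 in undifferentiated cells. The neural gene Gfap had H3K9Ac in differentiated cells. Promoter H4K5Ac and H3K4me1 were at further such markers, among them the blood gene Cd68 and the adipocyte gene Adipoq in both states. Cd68 and the chondrocyte gene Col10a1 had promoter H3K36me3 in both states. Peaks show the presence of a mark in a pool of cells, so fewer marked cells and less of the mark per cell cannot be told apart.

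Sequences found at many genes of the group, which itself was defined by symbol alone, are shown first. Past the coding part, the histone stem-loop was read from mm9 on the strand of each gene. The 7 examples below are taken from the 14 members with H3K4me3 in differentiated cells. The 16 bases of the stem-loop are in capitals, with 5 flanking bases on each side.
Hist1h1c, chr13:23831376-23831401, plus strand: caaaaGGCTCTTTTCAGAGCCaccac
Hist1h1e, chr13:23713646-23713671, minus strand: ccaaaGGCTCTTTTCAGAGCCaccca
Hist1h2be, chr13:23677395-23677420, minus strand: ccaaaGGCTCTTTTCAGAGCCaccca
Hist3h2a, chr11:58768669-58768694, plus strand: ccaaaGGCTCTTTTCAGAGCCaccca
Hist1h4h, chr13:23623322-23623347, plus strand: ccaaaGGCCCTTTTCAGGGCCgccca
Hist4h4, chr6:136752514-136752539, minus strand: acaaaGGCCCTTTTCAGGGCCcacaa
Hist2h4, chr3:96066857-96066882, minus strand: ctaacGGCCCTTTTTAGGGCCaacca
The 4 H1, H2A and H2B genes share the same 16 bases, and the 3 H4 genes carry other bases in the stem. In Hist2h4 the last base of the loop also differs. The exact form of the first 4 was found near the annotated end or stop codon of 39 of the 67 genes. Among all 22238 genes it was found at 40 (0.18%), so 1 gene outside the group had it. A relaxed form was found at 61 of the 67 and at 141 genes in all (0.634%). It keeps the outer pairs and the innermost pair of the stem, and all of the loop but its last base. The last loop base and the stem bases between those pairs are left free.

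Upstream of the genes, motifs were searched on both strands in the 250 bp before the annotated gene start. The CCAAT box, bound by NF-Y, was present at 57 of the 67 histone genes against 35% of all genes. It was at every H1, H2A and H2B gene and at 10 of the 11 H3 genes, but at 4 of the 13 H4 genes. The TATA box motif TATAAA was present at 33, against 12.3%. Other motifs also differed by histone class. The octamer ATTTGCAT, bound by OCT1, was found at 15 histone genes against 1.62% of all genes, and these were 7 H2A and 8 H2B genes. AAACACA, the core of the H1 box, was found at 9 (5.66% of all genes), of which 5 were among the 6 H1 genes. GGTCCG, the core of the H4 site II that binds HINFP, was found at 13 (7.81% of all genes), of which 11 were among the 13 H4 genes.

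Promoters of 4 genes illustrate this, with those 5 motifs in capitals on either strand. The H1 gene Hist1h1c has the H1 box and a CCAAT box, and it gained H3K4me3 with differentiation. Hist1h1a has CCAAT and TATA boxes and had no H3K4me3 region in either state. Hist1h4h has the H4 site, and Hist3h2a was the one member with H3K4me3 in both states. Each line gives the 150 bp before the annotated start on the gene's plus strand in mm9.
Hist1h1c, chr13:23830526-23830675: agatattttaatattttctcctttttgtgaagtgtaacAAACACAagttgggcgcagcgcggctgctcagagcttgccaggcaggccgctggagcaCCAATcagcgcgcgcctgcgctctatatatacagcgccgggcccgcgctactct
Hist1h1a, chr13:23855387-23855536: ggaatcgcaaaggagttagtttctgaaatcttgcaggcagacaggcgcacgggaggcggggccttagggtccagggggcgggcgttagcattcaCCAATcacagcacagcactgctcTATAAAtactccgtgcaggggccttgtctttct
Hist1h4h, chr13:23622769-23622918: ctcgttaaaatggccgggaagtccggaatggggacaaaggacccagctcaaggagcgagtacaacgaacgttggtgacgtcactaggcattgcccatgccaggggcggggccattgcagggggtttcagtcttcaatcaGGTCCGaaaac
Hist3h2a, chr11:58768037-58768186: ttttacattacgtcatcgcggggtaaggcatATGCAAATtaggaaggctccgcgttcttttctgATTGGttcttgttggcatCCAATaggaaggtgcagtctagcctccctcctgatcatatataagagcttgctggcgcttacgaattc

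Many members share a promoter. There were 13 pairs of members that start back to back, 12 of them an H2A gene with an H2B gene, with 167 to 692 bp between the starts (median 240 bp). The pair Hist2h2ac and Hist2h2be gained H3K4me3, while the pair Hist1h2ac and Hist1h2bc, which has the same 3 motifs, had no H3K4me3 region in either state. Both intervals between the starts are shown on the plus strand, with matches to the CCAAT box, the TATA box and the octamer of either strand in capitals.
Hist2h2ac to Hist2h2be, chr3:96024804-96025043: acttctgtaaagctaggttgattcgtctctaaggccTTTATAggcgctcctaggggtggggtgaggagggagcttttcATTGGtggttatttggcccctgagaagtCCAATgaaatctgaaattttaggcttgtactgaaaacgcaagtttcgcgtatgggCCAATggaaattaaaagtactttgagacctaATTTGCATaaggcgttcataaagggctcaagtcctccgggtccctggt
Hist1h2ac to Hist1h2bc, chr13:23775818-23776067: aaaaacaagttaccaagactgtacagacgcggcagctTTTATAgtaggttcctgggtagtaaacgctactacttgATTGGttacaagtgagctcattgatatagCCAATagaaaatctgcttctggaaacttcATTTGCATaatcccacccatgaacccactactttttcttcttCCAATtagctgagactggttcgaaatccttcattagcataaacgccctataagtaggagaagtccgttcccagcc
The 3 motifs are thus present in the pair with H3K4me3 and in the pair without it. A match is a string of letters and not evidence that the factor bound.

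The first comparison asked which marks of active promoters the histone genes carried. A gene was counted when a region overlapped the window of 1000 bp on either side of an annotated transcription start site by at least 1 bp. H3K9Ac, an acetylation of active promoters, was found at 56 of the 67 histone genes in undifferentiated cells (49.2% of all genes) and at 57 in differentiated cells (52.5%). H4K5Ac, an acetylation of active regulatory regions, was at 57 genes in each state (55.5% and 54.3% of all genes). H3K4me1, a mark of enhancers and promoter flanks, was also at 57 in each state (57.1% and 59% of all genes). In both states 56 of the 67 had all 3 of these marks, against 47.1% of all genes.

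The calls of these 3 marks were nearly constant with differentiation. The H1 gene Hist1h1t, which encodes the testis-specific linker histone, was the only member to gain H3K9Ac (3.39% of all genes gained it), and no member lost it (0.157%). Its H3K9Ac region begins inside the gene at chr13:23788539 and continues over the neighbouring Hist1h4c. In undifferentiated cells the region over Hist1h4c began at chr13:23788894, just outside the window of 1000 bp around the start of Hist1h1t. Within 2000 bp of a start, 57 members had H3K9Ac in each state. For H4K5Ac no member gained or lost a region (1.18% and 2.39% of all genes), and the same was true of H3K4me1 (3.23% and 1.4%). With only the regions at or above the median score of each list, H4K5Ac was at 56 members in undifferentiated and 45 in differentiated cells (45.8% and 40.6% of all genes).

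**Figure D1:**
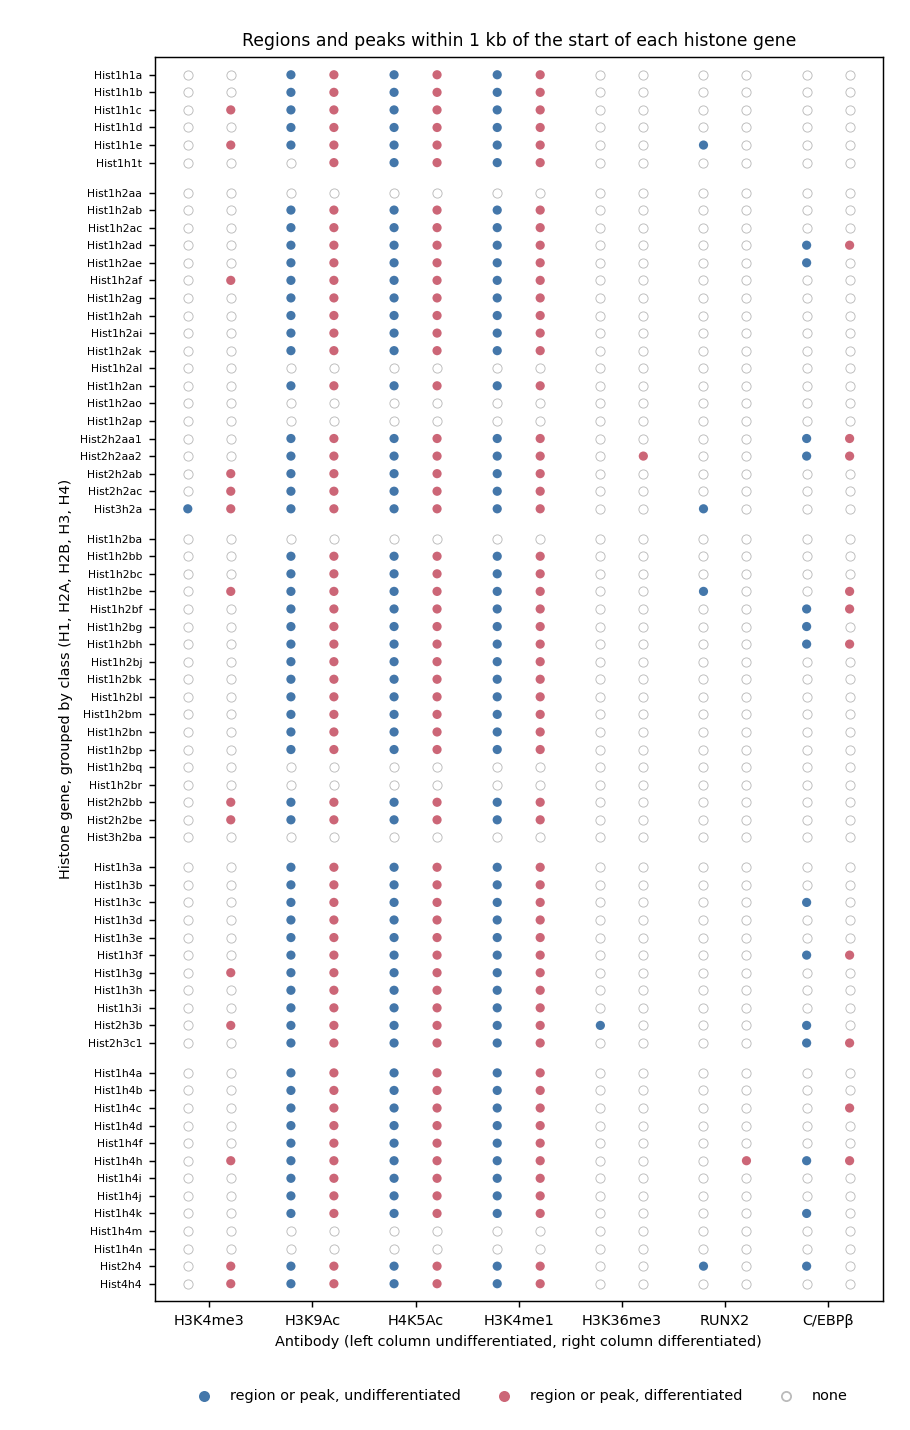
Regions and peaks within 1 kb of a start site of each of the 67 histone genes (vertical axis, grouped by class) for the 7 antibodies (horizontal axis, undifferentiated left in blue, differentiated right in red, open circles none). H3K9Ac, H4K5Ac and H3K4me1 fill nearly the same 57 genes in both states, whereas H3K4me3 is at 1 gene in undifferentiated and 14 in differentiated cells.

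H3K4me3, the mark of active promoters laid down by SET1 and MLL complexes, was distributed differently. It was present at 1 of the 67 histone genes in undifferentiated cells, against 34.9% of all genes, and at 14 in differentiated cells, against 40.1%. Thus 13 members gained it (6.6% of all genes did) and 0 lost it (1.45%). In undifferentiated cells the one gene was Hist3h2a, an H2A gene on chromosome 11 outside the large clusters, in a region of 4942 bp at chr11:58768136-58773077. That region stood at percentile 40.6 of its list by the authors' score, and the differentiated region at Hist3h2a, of 2569 bp, at percentile 52.1.

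**Figure D2:**
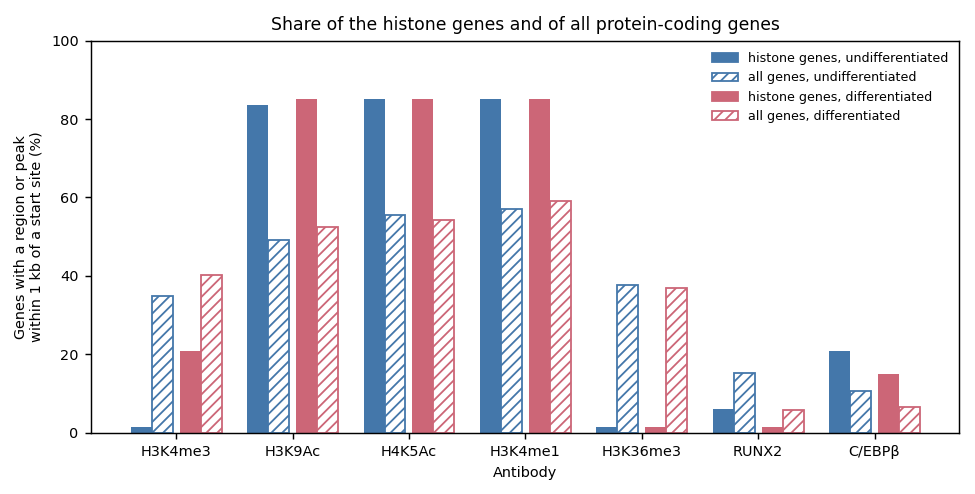
Share of genes with a region or peak within 1 kb of a start site (vertical axis, percent) for 7 antibodies (horizontal axis); filled bars are the 67 histone genes, hatched bars all 22238 genes, blue undifferentiated and red differentiated. The histone bars are above the all-gene bars for H3K9Ac, H4K5Ac, H3K4me1 and C/EBPβ and below them for H3K4me3, H3K36me3 and RUNX2.

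Most histone promoters without an H3K4me3 region were acetylated. Of the histone genes with H3K9Ac, 1 of 56 had H3K4me3 in undifferentiated cells, while 70.8% of all genes with H3K9Ac had it. In differentiated cells it was 14 of 57, against 76.4%. Conditioned on H4K5Ac the counts were 1 of 57, against 62.7%, and 14 of 57, against 73.5%. The share of acetylated histone promoters with an H3K4me3 region was thus lower than that of acetylated promoters in general in both states.

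Histone genes are short and mostly of 1 exon, so such genes were looked at separately. Among other genes shorter than 1000 bp with promoter H3K9Ac, 68 of 109 had H3K4me3 in undifferentiated cells (62.4%) and 88 of 126 in differentiated cells (69.8%). Among other genes of 1 exon with H3K9Ac, the counts were 165 of 283 (58.3%) and 213 of 324 (65.7%).

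The rank of the acetylated region was then compared, using the score that the authors deposited to place each H3K9Ac region within its own list. Histone genes ranked high: the median percentile of their H3K9Ac regions was 78.4 in undifferentiated and 82.3 in differentiated cells, against 66.8 and 77.9 over all genes with H3K9Ac. Between percentiles 75 and 100 of the undifferentiated list, 0 of 42 histone genes had H3K4me3, against 94.1% of the other genes. In the same class of the differentiated list 14 of 42 had it, against 94.7%. Between percentiles 50 and 75 the counts were 1 of 11 against 75.1% and 0 of 14 against 70.8%. All 14 H3K4me3-marked histone genes of differentiated cells were therefore among those whose H3K9Ac region ranked above percentile 75.

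**Figure D3:**
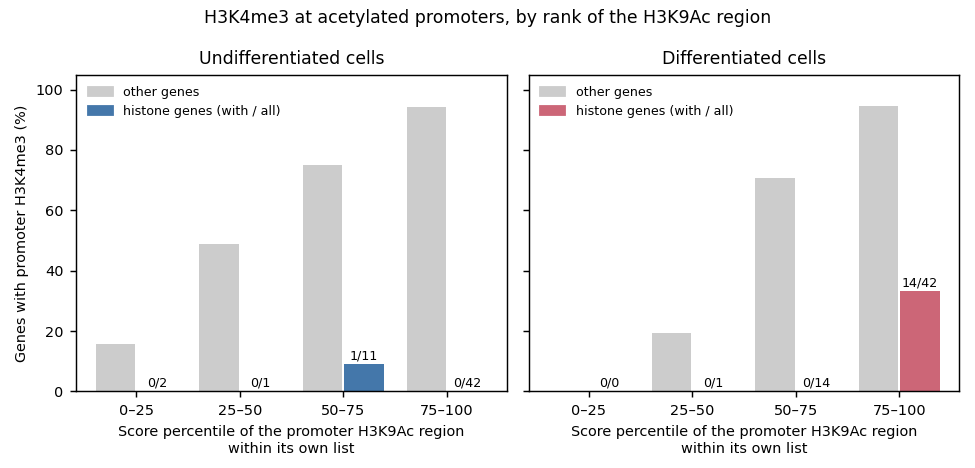
Genes with promoter H3K4me3 (vertical axis, percent) by the score percentile of their promoter H3K9Ac region within its list (horizontal axis, 4 classes), for other genes in grey and histone genes in colour, with the number marked over the number in the class above each histone bar. In the top class 94.1% and 94.7% of other genes had H3K4me3, against 0 of 42 and 14 of 42 histone genes.

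Members in 1 region are not independent, so the regions themselves were counted. The 56 histone genes with H3K9Ac in undifferentiated cells lay in 21 regions, the largest of which held 8 genes, and the 57 in differentiated cells lay in 22. An H3K4me3 region overlapped 1 of the 21 regions, against 67% of H3K9Ac regions at other genes, and 7 of the 22, against 71.1%. Above percentile 75 of the score it was 0 of 13 regions against 93.6%, and 7 of 16 against 94.6%. The difference from other genes was thus also present with regions as the unit.

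The H3K9Ac regions at histone genes were wide. Counting each region once, the median width was 6874 bp in undifferentiated and 7844 bp in differentiated cells, against 3096 and 3556 bp for the regions at all genes. For H4K5Ac it was 10158 and 8769 bp, against 5668 and 4547 bp. A median over genes counts a shared region once for each gene in it, and for H4K5Ac at histone genes it was 17861 and 11272 bp. A single undifferentiated H4K5Ac region of 64651 bp at chr13:23616131-23680781 spanned 14 histone genes, from Hist1h4h to Hist1h4d. In differentiated cells the same 14 genes lay in 5 H4K5Ac regions of 3394 to 19547 bp. The median score percentile of the distinct H4K5Ac regions at histone genes was 88.6 before and 67.5 after differentiation, against 70 and 65.1 for the regions at all genes. For H3K4me1 it was 79.4 and 77.1, against 63.7 and 67.2.

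**Figure D4:**
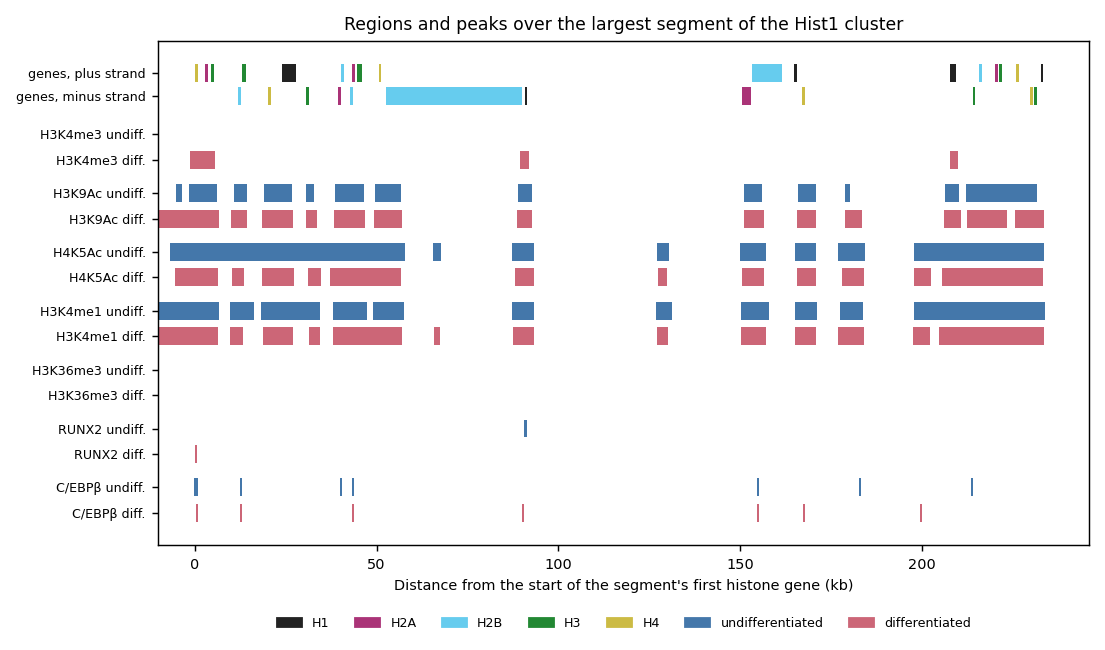
Map of the largest run of Hist1 genes, 29 genes over 233 kb of chromosome 13, with genes by strand and class at the top and the deposited regions and peaks of each antibody below (blue undifferentiated, red differentiated; horizontal axis, distance in kb from the first gene; factor peaks and the shortest genes are drawn slightly widened). Acetylation covers the gene groups in both states, H3K4me3 appears as 3 regions in differentiated cells, and no H3K36me3 region lies in the segment.

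The 13 genes that gained H3K4me3 came from every class and lay in 7 regions. Of the H1 genes, which bind linker DNA, Hist1h1c was in a region of 2322 bp at chr13:23830534-23832855, at score percentile 12.6. Hist1h1e shared a region of 2377 bp, at percentile 24.1, with Hist1h2be. The annotated span of Hist1h2be is 37383 bp, and its annotated starts lie beside Hist1h1e. Its printed stem-loop is near the other end of that span, where no H3K4me3 region lay. The calls for Hist1h2be given here thus describe the distant starts. A region of 6873 bp at chr13:23621536-23628408, at percentile 35.1, held the starts of 3 genes, Hist1h2af, Hist1h3g and Hist1h4h. These are an H2A, an H3 and an H4 gene at the edge of the segment.

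On chromosome 3, the H2A genes Hist2h2ab and Hist2h2ac and the H2B gene Hist2h2be shared a region of 2698 bp at chr3:96022816-96025513, which stood highest by score, at percentile 56.9. The H4 gene Hist2h4 was in a region of 2907 bp at percentile 45. Hist2h2bb and Hist2h3b, an H2B and an H3 gene, shared a region of 2096 bp at percentile 8.92. The only member on chromosome 6, the H4 gene Hist4h4, had the narrowest region, 1995 bp, at percentile 4.83. The gained regions of histone genes were at a median percentile of 35.1 (4.83 to 56.9, n = 13 genes), against 14 (0.0122 to 98.5) over all 1467 genes that gained the mark, and the middle one of the 7 regions was at 24.1.

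The 13 gains have to be read against the acetylated genes that could gain. Of genes with H3K9Ac in both states and no H3K4me3 in undifferentiated cells, 13 of 55 histone genes gained it (23.6%), against 45.9% of all 3163 such genes. The gain was thus more frequent than among all genes and less frequent than among acetylated, unmarked genes. The first of these did not hold with only the regions at or above the median score of each list, where 4 members (5.97%) and 6.19% of all genes gained the mark.

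Gains were unevenly spread along the genome. In differentiated cells 40.1% of all genes had H3K4me3, 52.5% had H3K9Ac, and 76.4% of those with H3K9Ac had H3K4me3. The 14 members with H3K4me3 lay in 8 regions, of which 4 held more than 1 member, so the counts of genes below are not independent. On chromosome 3, 6 of 9 members had H3K4me3 in differentiated cells, and all 9 had H3K9Ac. In the 233 kb segment of chromosome 13, 6 of 29 had it, and all 29 had H3K9Ac. In the segments of 122 kb and 8.56 kb at the other end of the Hist1 cluster, 0 of 18 and 0 of 5 had it, although 12 and 5 had H3K9Ac. Hist1h1b, an H1 gene, was among those acetylated genes without H3K4me3. By annotated length, a split chosen after the values were seen, 6 of 14 acetylated members of at least 1000 bp had H3K4me3 and 8 of 43 shorter ones. Genes that share a region, such as Hist1h1e and Hist1h2be, fall on both sides of this split.

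Of the 6 H1 genes, Hist1h1c and Hist1h1e gained H3K4me3 and Hist1h1a, Hist1h1b, Hist1h1d and Hist1h1t had none in either state. Hist1h1b had a high H3K9Ac rank, at percentile 88.3 and 94. Hist1h1d was at percentile 75.2 and 86.6. Hist1h1c was at percentile 91.5 and 88.6, and Hist1h1e at 78.4 and 80.2, so the H3K9Ac rank did not separate the H1 genes that gained H3K4me3 from those that did not. The H3K9Ac region near Hist1h1a, at percentile 78.1 and 58.3, ended before its start in undifferentiated cells and covered it in differentiated cells.

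H3K36me3, laid down by SETD2 behind elongating RNA polymerase II, was measured as the percentage of the annotated gene span covered by regions. Only Hist3h2a, the gene with H3K4me3 in both states, had any cover, 36.3% in undifferentiated and 38.5% in differentiated cells. That is 1 of 67 in each state, against 50.4% and 50.1% of all genes. Among all genes with promoter H3K9Ac 90.7% and 86.6% had cover, and 1 of the 56 and 1 of the 57 acetylated histone genes did.

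Short genes have less H3K36me3 in general, so short genes were taken as the comparison. None of the 51 histone genes under 1000 bp had any cover in either state. Of other genes under 1000 bp with promoter H3K9Ac, 36 of 109 (33%) and 42 of 126 (33.3%) had cover. With promoter H3K4me3 it was 23 of 69 (33.3%) and 32 of 89 (36%). The nearest H3K36me3 region was a median of 139 kb from the start of a histone gene in each state. Within the promoter window the mark reached Hist2h3b in undifferentiated cells alone and Hist2h2aa2 in differentiated cells alone. This is 1 member in each state against 37.6% and 37% of all genes, with 1 gained (2.08%) and 1 lost (2.72%).

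RUNX2 had a peak in the promoter window of 4 histone genes in undifferentiated cells, against 15.1% of all genes, and of 1 gene in differentiated cells, against 5.63%. All 4 were lost (10.4% of all genes lost theirs) and the 1 was gained (0.908%). The 4 genes shared 3 peaks. The peak at chr13:23713573-23713773 was centred 698 bp downstream of the start of Hist1h1e, and it lay 680 and 710 bp upstream of the annotated starts of Hist1h2be. The peak at chr11:58768502-58768702 was centred 415 bp downstream of the start of Hist3h2a. These peaks covered the stem-loops of Hist1h1e and Hist3h2a printed above. The stem-loop of Hist1h1e is at the annotated end of the gene, and that of Hist3h2a is well before the end of its longer annotation. Both contain the RUNX motif TGTGGT, as did 51.5% of all RUNX2 peaks of that list.

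The third peak, at chr3:96067422-96067622, was centred 288 bp upstream of the start of Hist2h4 and overlapped a C/EBPβ peak. It is shown on the plus strand because it was the only RUNX2 peak upstream of an H4 gene, and it has no TGTGGT on either strand.
Hist2h4 RUNX2 peak, chr3:96067422-96067622: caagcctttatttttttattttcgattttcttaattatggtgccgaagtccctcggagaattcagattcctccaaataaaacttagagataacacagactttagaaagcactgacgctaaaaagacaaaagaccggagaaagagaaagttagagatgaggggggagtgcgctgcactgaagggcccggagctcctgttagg
In differentiated cells the single RUNX2 peak, at chr13:23622884-23623084, was centred 65 bp downstream of the start of Hist1h4h and had no TGTGGT either, against 59.6% of that list with it. The 5 genes with a RUNX2 peak in either state all had an H3K4me3 region in differentiated cells, as did 86.5% of the 3560 genes in all with such a peak. Upstream of the histone genes themselves the motif was at 5 of 67, against 12.7% of all genes. A median of 84.6 kb separated a histone start from the nearest RUNX2 peak in undifferentiated cells and 232 kb in differentiated cells, whose list was shorter.

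C/EBPβ had peaks at more histone genes, 14 in undifferentiated cells against 10.7% of all genes, and 10 in differentiated cells against 6.55%. Of these, 6 lost their peaks (5.41% of all genes did) and 2 gained one (1.26%). The 14 genes shared 11 peaks and the 10 genes shared 7. The share of histone genes with C/EBPβ was above that of all genes in both lists, unlike RUNX2. All these peaks lay in H3K9Ac regions, which were more frequent at histone genes than at genes in general. C/EBPβ was not compared among acetylated genes alone.

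The genes with C/EBPβ in both states included divergent pairs. The H2A and H2B genes Hist1h2ad and Hist1h2bf shared a peak between their starts, and the H2B and H3 genes Hist1h2bh and Hist1h3f shared another. Hist2h2aa1 and Hist2h3c1 shared a peak at chr3:96049122-96049322, centred 239 bp upstream of Hist2h2aa1, and Hist2h2aa2 had one 240 bp upstream. The H4 gene Hist1h4h kept a peak centred 484 bp downstream of its start in undifferentiated cells, over its stem-loop, and lost one centred 73 bp upstream. The pair Hist1h2ad and Hist1h2bf has a match to TTGCNNAA, a relaxed C/EBP motif, in the interval between the starts, shown in capitals on the plus strand with the CCAAT boxes, which it overlaps by its last bases.
Hist1h2bf to Hist1h2ad, chr13:23666066-23666249: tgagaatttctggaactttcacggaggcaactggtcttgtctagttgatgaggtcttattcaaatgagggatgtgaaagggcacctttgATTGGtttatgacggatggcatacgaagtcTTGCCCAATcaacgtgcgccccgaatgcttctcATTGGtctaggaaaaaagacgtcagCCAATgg

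The C/EBPβ peaks of Hist1h2ae and Hist1h2bg, of Hist1h3c, of Hist2h3b, of Hist1h4k and of Hist2h4 were found in undifferentiated cells only. Those of Hist1h2be, 34 and 64 bp upstream of its annotated starts, and of Hist1h4c, 18 bp upstream, were found in differentiated cells only. The motif TTGCNNAA was in 4 of the 11 undifferentiated peaks, against 41.1% of all C/EBPβ peaks of that list, and in 3 of the 7 differentiated ones, against 44.8%. The palindrome TTGCGCAA was in none of them, against 2.96% and 1.93% of all peaks. Within 250 bp upstream, TTGCNNAA was at 15 histone genes, against 9.16% of all genes, and TTGCGCAA at 0, against 0.166%. At 5 of the 15 every match overlapped an octamer, since ATTTGCAT and TTGCNNAA can share letters. The nearest C/EBPβ peak was a median of 8.68 kb from a histone start in undifferentiated and 23.2 kb in differentiated cells.

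Of the 67 genes, 10 had no region or peak of any antibody near their start in either state. They include Hist1h2aa and Hist1h2ba, a divergent H2A and H2B pair expressed in testis, the isolated Hist1h2al, and Hist3h2ba. The other 6 form a duplicated stretch of chromosome 13. These are the H2A genes Hist1h2ao and Hist1h2ap, the H2B genes Hist1h2bq and Hist1h2br and the H4 genes Hist1h4m and Hist1h4n, and the 250 bp upstream are identical within each of these 3 pairs. The identity is shown for the 100 bp before Hist1h4m, on the plus strand, and before Hist1h4n, on the minus strand, with GGTCCG in capitals.
Hist1h4m, chr13:21903515-21903614: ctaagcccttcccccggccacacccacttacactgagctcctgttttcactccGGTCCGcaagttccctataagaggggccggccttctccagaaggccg
Hist1h4n, chr13:21924066-21924165: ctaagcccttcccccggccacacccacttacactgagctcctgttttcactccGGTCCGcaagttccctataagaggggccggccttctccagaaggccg
Reads from such copies cannot be placed at one of them, and how the authors treated reads with several positions is not given in the sources used here.

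To measure this, the share of 32-base words in each promoter window that occur more than once in mm9, on either strand, was counted. It was 100% for Hist1h2ao, Hist1h2ap, Hist1h2bq and Hist1h2br, 95.8% for Hist1h4m and 95.7% for Hist1h4n. The median of the 67 was 25.2%, against 2.71% for 56 related genes described below, none of which reached 50%. The other 4 genes without regions had 10.7% (Hist1h2aa and Hist1h2ba), 41.2% (Hist1h2al) and 11.3% (Hist3h2ba). Of the 9 members with at least 50%, Hist2h3c1 (61.6%), Hist2h2aa1 (58.7%) and Hist2h2aa2 (58.5%) did have acetylation and C/EBPβ peaks in both states.

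The members were also split by repeated words. Of the 10 members with under 10%, 9 had H3K9Ac and 0 had H3K4me3 in undifferentiated cells, and 10 had H3K9Ac and 5 had H3K4me3 in differentiated cells. Of the other 57, 47 had H3K9Ac and 1 had H3K4me3 before differentiation, and 47 and 9 after it. In undifferentiated cells H3K4me3 was thus at no more than 1 gene of either group, and in differentiated cells it was at a larger share of the members with few repeated words. The part of repeated sequence in the H3K4me3 counts was not tested. Hist1h1a, at 0.0508%, and Hist1h1b, at 1.27%, had H3K9Ac in both states and H3K4me3 in neither. The 5 with H3K4me3 were Hist1h1c, Hist1h1e, Hist1h2be, Hist2h4 and Hist4h4. The repeated words of Hist1h2be were counted at its starts beside Hist1h1e, far from its stem-loop.

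**Figure D5:**
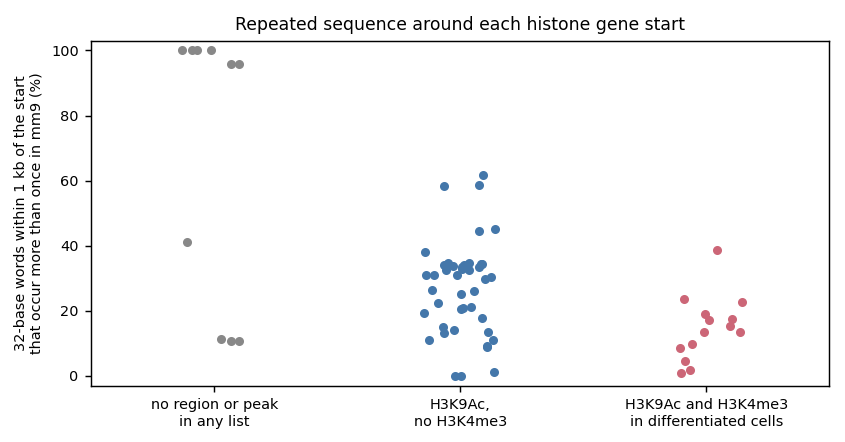
Share of 32-base words within 1 kb of the start that occur more than once in mm9 (vertical axis, percent) for each histone gene, 1 point a gene with horizontal scatter for legibility, in 3 classes: no region or peak in any list (10 genes), H3K9Ac without H3K4me3 (43 genes) and both marks in differentiated cells (14 genes). The 6 points from 95.7% to 100% are all in the first class, which also holds 4 genes from 10.7% to 41.2%.

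Genes of the same pathway that lie outside the clusters were marked differently. Of 11 replication-independent histone genes in the annotation, 9 had H3K9Ac in each state and 8 had H3K4me3 in undifferentiated and 9 in differentiated cells, with H2afv, an H2A.Z gene, the one added. H3K36me3 covered part of 8 of the 11 in each state. Their promoters had RUNX2 at H3f3b, H2afv, H2afx and Cenpa in undifferentiated cells and at none in differentiated cells. For this and the following lists, the share of all genes with RUNX2 fell from 15.1% to 5.63%, and 10.4% lost it. H3K9Ac was at 49.2% and 52.5% of all genes, and H3K4me3 at 34.9% and 40.1%. H3K36me3 covered part of 50.4% and 50.1% of all genes, and of 90.7% and 86.6% of those with promoter H3K9Ac.

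Of 16 genes for histone mRNA processing and the histone locus body, all had H3K9Ac in each state, and 14 and then 16 had H3K4me3. Lsm10, of the U7 particle that processes histone mRNA, and Zfp473, a zinc finger protein of the same machinery, were the 2 added. H3K36me3 covered part of the annotated span of all 16 in each state. RUNX2 was at 7 of these in undifferentiated cells, including Npat, the transcriptional activator of histone genes, Slbp, the stem-loop binding protein, and Hinfp, the H4 site factor. In differentiated cells it was at 3, Casp8ap2, Cpsf3 and Hinfp, with 15.1% and then 5.63% of all genes. RUNX2 was thus listed at Npat and Slbp in the state in which it was listed at 4 of the 67 histone genes.

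Of 22 S phase genes, 19 had H3K4me3 and 22 had H3K9Ac in each state. RUNX2 was at 11 of them in undifferentiated cells (15.1% of all genes), among them Mcm2 to Mcm7 of the replicative helicase and Pcna. In differentiated cells it was at Fen1 alone (5.63% of all genes, in a shorter list). Of 7 histone chaperone genes, 6 had H3K4me3 in each state, and RUNX2 was at Chaf1a and Daxx in undifferentiated cells and at none in differentiated cells. In undifferentiated cells H3K4me3 was thus at 19 of the 22 S phase genes, with E2f2, Pole and Pola1 the exceptions, and at Hist3h2a alone of the 67 clustered histone genes.

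Between the histone genes of the Hist1 cluster, over 2219 kb, lie 48 other protein-coding genes. Of these 5 had H3K9Ac in each state, against 49.2% and 52.5% of all genes. H3K4me3 was at 1 in undifferentiated cells (34.9% of all genes) and at 2 in differentiated cells (40.1%). None had a RUNX2 peak (15.1% and 5.63% of all genes) or a C/EBPβ peak (10.7% and 6.55%). The H3K4me3 region nearest to a histone start was a median of 308 kb away in undifferentiated and 22.7 kb in differentiated cells.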

How the data were processed

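The submitters' processing notes name Bowtie, HOMER and the build mm9, and versions, thresholds and read length were not given in the sources used here. The deposited score of each region is the authors' own, is 0 throughout the RUNX2 and C/EBPβ lists, and was used only for percentile ranks within a list. Per the labels each list merges biological replicates. Regions were intersected with all start sites of the protein-coding genes of GENCODE vM1, 1 unit per symbol, positions 1-based, with Python 3.11.15 and numpy 2.4.6. Overlap, cover and motif steps were tested on simulated data.

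Members, gene lists and measures were chosen with earlier results of these data known. Named genes were every H1 gene and every member with a factor peak, an H3K4me3 region, H3K36me3 cover or a mark call that differed between states, and the members with the highest-ranked or widest H3K4me3 regions. Members without any region, those with the most repeated words and the pair Hist1h2ac and Hist1h2bc were named after their values were seen. Other settings tried are given in the closing section. H1f0, of 12 listed replication-independent genes, was not matched by symbol. Hist1h2al was not counted as the end of the Hist1 cluster, since it lies far from the others. The state of the differentiated H3K36me3 sample was read from its title, because its treatment label is garbled. H4K5Ac is the antibody label's name for what the protocol calls H3K5Ac.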

Additional observations from a re-analysis of the deposited data

How the results depend on the processing

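No paired analysis was possible because each antibody and state is 1 merged list. With only the regions at or above the median score of a list, H3K4me3 was at 0 members in undifferentiated cells (18.6% of all genes) and at 4 in differentiated cells (21.8%), and 4 members (5.97%) gained it, close to the 6.19% of all genes. H3K36me3 over the gene body was at 0 in each state. With a cover of at least 50% H3K36me3 was at 0 members in each state, and with 1000 bp added at each side of the gene at 2 in each. RUNX2 in undifferentiated cells was at 2 members within 500 bp of a start and at 0 on the start base itself, and C/EBPβ on the start base was at 4 members before and 3 after differentiation. The start base, and medians over distinct regions, were chosen after seeing the data. Within 500 bp, 22 members had at least 50% repeated words, against 9 within 1000 bp. TGTGGT was at 13 members within 500 bp upstream and at 2 within 150 bp, against 5. The counts of H3K9Ac, H4K5Ac and H3K4me1 and of the other motifs stayed within 1.5 times the reported value in every setting tried. Some members are annotated from their start codon, so their start site is approximate. Peak lists give no depth, and a missing region is not evidence that the mark is absent.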
